A study of Mus musculus with 9 samples.

Results

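DNA replication and deoxynucleotide synthesis were followed through 49 named genes in osteocyte-like MLO-Y4 cells. The genes were taken by symbol from the gene count table, and all 49 were found among its 56748 genes and passed the filter on low counts. They cover origin licensing (10 genes), origin firing (8), the sliding clamp and its loader (6), polymerases and primase (8), single-strand binding and lagging strand maturation (4), deoxynucleotide supply (5), E2F factors and cyclin E (6) and maintenance DNA methylation (2). MLO-Y4 is a mouse cell line made from the long bones of mice that carry the SV40 large T antigen under the osteocalcin promoter, and large T antigen binds the retinoblastoma proteins. Each library came from MLO-Y4 cells on collagen 1 that shared a transwell with primary articular chondrocytes of C57BL/6J mice aged 5 to 6 days. In the control group (n = 3) the chondrocytes were not stimulated. In the 24 h and 48 h groups (n = 3 each) the chondrocytes had received 10 ng/mL interleukin-1β (IL-1β) for 6 h before co-culture of that length. The labels give no culture time for the control, so that stimulation and time cannot be told apart against it. The source and cell line labels of the 48 h samples name other lines than MLO-Y4, whereas the protocol of the same samples names MLO-Y4. If those labels hold, cell line and the 48 h group cannot be told apart in any comparison with 48 h.

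Replication starts at origins, where the origin recognition complex, Cdc6 and Cdt1 load the Mcm2-7 helicase in G1 phase. Kinases then recruit Cdc45 and the GINS complex to fire the helicase, and primase, the polymerases, the clamp and the ligase copy the strands. Ribonucleotide reductase, thymidylate synthase and thymidine kinase supply the deoxynucleotides (dNTPs), and E2F factors drive many of these genes at the entry into S phase. Mature osteocytes are regarded as non-dividing, whereas MLO-Y4 cells divide in culture.

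Total counts ranged from 12250628 to 18515456 per library, and the counts of the 49 genes lay between 102 and 9199 in any library. Expression is given in CPM, the count of a gene relative to its library after TMM scaling, and a gene is called changed when its adjusted p in the edgeR quasi-likelihood test over all 13812 genes is under 0.05. The labels do not say that replicates came from separate cultures, so the p-values measure the spread between these samples, which may be technical. Of the 14 osteocyte and osteoblast markers, Dmp1, Sost, Mepe and Fgf23 were at or near 0 CPM in every library, while Pdpn ranged from 209 to 259.8 CPM and Phex from 10.7 to 20.6 CPM. Of the 10 that were tested, 4 were called higher and 5 lower at 48 h than in control. Of the 15 chondrocyte markers, 5 were at 0 in all libraries, Acan among them, and Col2a1 did not exceed 0.467 CPM. Their summed level was 1684 to 1719 CPM in control, 1568 to 1652 CPM at 24 h and 2132 to 2221 CPM at 48 h, nearly all of it from Prg4 and Sox9, and of the 6 chondrocyte markers tested 4 were called higher and 1 lower at 48 h than in control. Leukocyte markers summed to at most 8.18 CPM and endothelial markers to at most 0.521 CPM. The part of these levels in the results was not tested.

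At 48 h, 30 of the 49 replication genes were lower than in control and 0 were higher, while 19 were not called. Over all genes tested, 24.4% were called lower and 22.0% higher. Among the 10521 genes with a mean of at least 5 CPM, 30.1% were called lower. The median log2 fold change of the 49 genes was -0.19, against -0.00 over all genes. All 48 h libraries lay below all control libraries for 37 of the 49 genes and above them for 2, compared with 27.4% and 25.7% of all genes. The decreases were small for most genes, and the log2 fold change was below -0.5 for 4 of them: Rrm2, Mcm10, Dbf4 and Rrm1. Leaving out any 1 library gave 20 to 28 decreases, and DESeq2 and limma-voom called 26 and 31. No positive change was called by DESeq2 or limma-voom either. However, 1 was called with DESeq2 size factors in edgeR, with library size only or without control replicate 2. Without control replicate 1, or in genes of at least 5 CPM, 2 were called. In the main fit, 1 of the 49 had a positive change with an unadjusted p under 0.05. In these bulk samples, fewer replicating cells and less RNA per cell cannot be told apart.

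**Figure D1:**
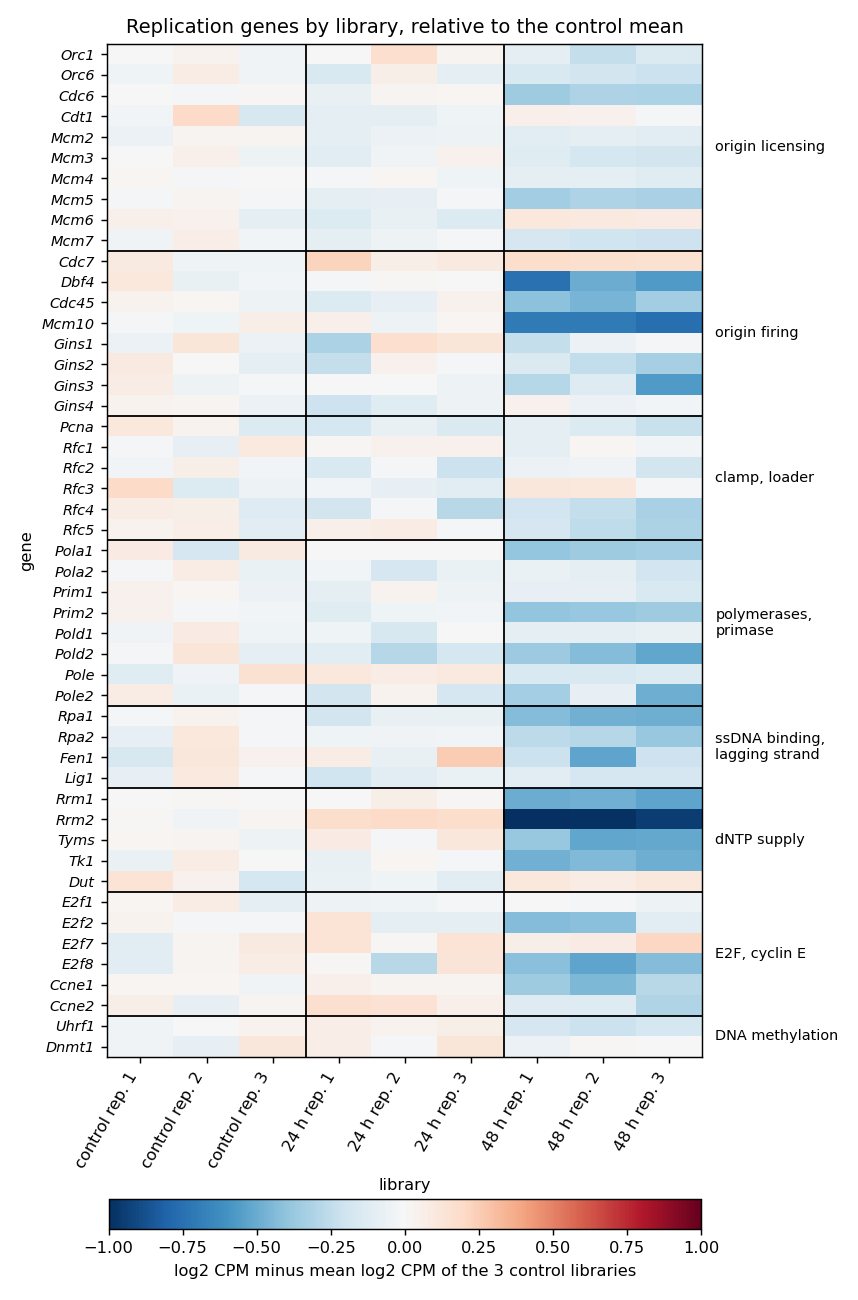
Log2 CPM of each of the 49 genes in each of the 9 libraries (columns), minus the mean log2 CPM of the 3 control libraries, with blue for lower and red for higher. The 48 h columns are blue for most genes, deepest for Rrm2 and Mcm10, while the 24 h columns stay close to 0.

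At 24 h the changes from control were small. Of the 49, 1 was called higher (Rrm2) and 0 lower, where 3.25% of all genes (449) were called higher and 2.9% (400) lower. Over all genes these counts moved to 873 and 602 without control replicate 3, to 295 and 223 without 24 h replicate 3, and to 302 and 222 without 24 h replicate 1. All 49 had an absolute log2 fold change under 0.2, the median was -0.04, and the libraries of the groups overlapped for 44 of them. Another 2 lay above all control libraries and 3 below, where this held for 10.3% and 11.2% of all genes. DESeq2 and limma-voom also called 0 lower, whereas 3 were called lower without control replicate 3. An unadjusted p under 0.05 was found for 6 of the 49, of which 5 had a negative change, against 2577 of all 13812 genes. In the direct comparison of 48 h with 24 h, 26 genes were lower and 2 higher (Mcm6 and Dut), against 25.4% and 23.7% of all genes. The 48 h libraries serve in both of these comparisons with 48 h, which therefore are not independent. 23 genes were lower at 48 h against both control and 24 h.

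**Figure D2:**
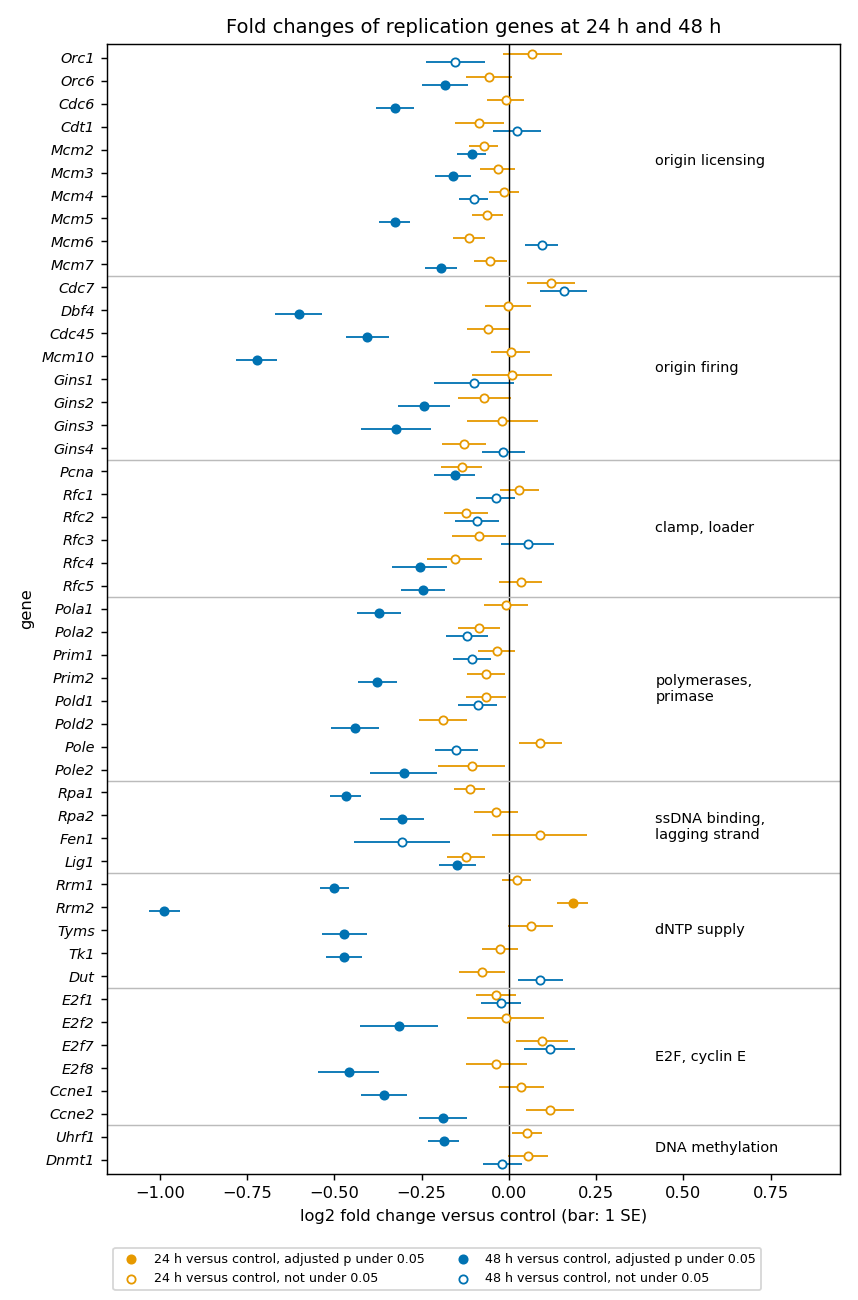
Log2 fold change against control at 24 h (orange) and 48 h (blue) for each of the 49 genes, with a bar of 1 SE, and filled points for an adjusted p under 0.05. The filled blue points lie left of 0, and the orange points lie within 0.2 of it, of which that of Rrm2 (0.18) is filled.

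Levels were compared between genes per kb of the exon length in the table. That length need not be the length of the RNA expressed in these cells, so the order of genes depends on it. In CPM without division by length, Rrm1 (431) stood above Rrm2 (335) in control, and Mcm2 (532) was the highest. In control, Rrm2 was the highest of the 49 with 121 ± 2.75 CPM per kb (mean ± SD, n = 3), followed by Pcna with 111 ± 9.14 and Mcm4 with 103 ± 1.35 CPM per kb. The means of Rrm2 and Pcna differed by no more than their summed SD. E2f2 was the lowest with 2.99 ± 0.0696 CPM per kb, next to Fen1 with 3.66 ± 0.353 CPM per kb. At 48 h Rrm2 stood at 61.1 ± 1.74 CPM per kb, below Mcm6 with 103 ± 0.855, Pcna with 99.4 ± 4.56 and Mcm4 with 95.7 ± 1.29 CPM per kb. Summed over the 49 genes, expression was 7108 ± 94.2 CPM in control, 6956 ± 97.0 CPM at 24 h and 6090 ± 59.6 CPM at 48 h (mean ± SD, n = 3 each).

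Of the 10 licensing genes, 6 fell at 48 h (Mcm5, Cdc6, Mcm7, Orc6, Mcm3 and Mcm2), and the median log2 fold change of the 10 was -0.16. For this and each later role, such counts stand beside 24.4% of all genes called lower and 27.4% with all 48 h libraries below control. The roles are small, and their difference from these shares was not tested. Mcm5 (chr8:75836197-75855067, plus strand; GRCm39) encodes a subunit of the replicative helicase. Its expression was 297, 305 and 296 CPM in the control libraries, 282, 282 and 296 CPM at 24 h and 235, 242 and 239 CPM at 48 h. The 48 h libraries lay below all the others, and their log2 fold change was -0.33 (adjusted p = 8.3e-06, SE 0.04). Cdc6 (chr11:98798627-98814766, plus strand) encodes the loader that brings the helicase to origins. It was at 81.6, 80.5 and 82.2 CPM in control, 77.2, 82.8 and 82.7 CPM at 24 h and 63.5, 65.9 and 65.4 CPM at 48 h. There was again no overlap at 48 h, and the change was -0.33 (adjusted p = 7.7e-05, SE 0.05). Mcm6 (chr1:128259327-128287401, minus strand), another subunit of the same helicase ring, was not called lower at 48 h. It measured 464, 462 and 420.2 CPM in control, 409, 427 and 409 CPM at 24 h and 483, 479 and 475 CPM at 48 h. On the log2 scale, the change of Mcm6 at 48 h was 0.09 (adjusted p = 0.107, SE 0.05) against control and 0.21 (adjusted p = 0.00109, SE 0.05) against 24 h, and its 24 h libraries overlapped those of control. The 48 h libraries of Mcm6 lay above all the others, and without control replicate 2 it was called higher than control (adjusted p = 0.0303). At 24 h Mcm6 was called lower than control when control replicate 3 was left out (adjusted p = 0.0249).

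The other helicase subunits had smaller log2 fold changes than Mcm5, a difference that was not tested. Log2 fold changes at 48 h were -0.19 (adjusted p = 0.00207, SE 0.05) for Mcm7, -0.16 (adjusted p = 0.0152, SE 0.05) for Mcm3, -0.11 (adjusted p = 0.0439, SE 0.04) for Mcm2 and -0.10 (adjusted p = 0.0596, SE 0.04) for Mcm4. The call of Mcm2 was lost when any 1 library other than control replicate 1 was left out (adjusted p from 0.0719 to 0.148). That of Mcm3 was lost without control replicate 1 or 2 or 48 h replicate 2 or 3 (0.0519 to 0.069), and that of Orc6 without these or 24 h replicate 3 (0.0511 to 0.118). Per kb, the 6 subunits of the ring ranged in control from 67.7 ± 2.68 CPM for Mcm7 to 103 ± 1.35 CPM for Mcm4, with Mcm5 at 75.0 ± 1.18 CPM. At 48 h they ranged from 59.2 ± 0.852 CPM for Mcm7 to 103 ± 0.855 CPM for Mcm6, and Mcm5 at 59.7 ± 0.858 CPM had come next to Mcm7. Orc1 and Orc6 are subunits of the origin recognition complex. Orc1 was not called at 48 h against control, although its 48 h libraries lay below it (-0.15, adjusted p = 0.149), and was called lower against 24 h (-0.22, adjusted p = 0.0355, SE 0.08). Cdt1, the partner of Cdc6 in loading, ranged from 102 to 130.4 CPM in control and from 114 to 119 CPM at 48 h, so that the groups overlapped.

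Most licensing genes held an E2F binding word close to their start. Such words were searched in the RefSeq promoter windows of build GRCm38.p6, which run from 250 bases before to 50 bases after the start and are 300 bases long. The words were TTTCCCGC or TTTGGCGC or TTTCGCGC or TTTGCCGC, on either strand, and 2 words may overlap where 1 reads as another on the other strand. Windows were found for 41 of the 49 genes, and 17 of them (41.5%) held a word, against 2.26% of all 32851 windows of this length and 2.6% of all genes with a window. Among the licensing genes with a window this was 7 of 9, the 2 without being Orc6 and Mcm2. The windows of Cdc6, Mcm5 and Mcm6 are shown because all 3 hold such a word while Cdc6 and Mcm5 fell and Mcm6 did not. Capitals mark the E2F words and also CCAAT or, on the other strand, ATTGG, the word of the factor NF-Y. The windows are those of Cdc6 (chr11:98907901-98908200, plus strand), Mcm5 (chr8:75109259-75109558, plus strand) and Mcm6 (chr1:128359656-128359955, minus strand), written 5′ to 3′ along the gene.
Cdc6: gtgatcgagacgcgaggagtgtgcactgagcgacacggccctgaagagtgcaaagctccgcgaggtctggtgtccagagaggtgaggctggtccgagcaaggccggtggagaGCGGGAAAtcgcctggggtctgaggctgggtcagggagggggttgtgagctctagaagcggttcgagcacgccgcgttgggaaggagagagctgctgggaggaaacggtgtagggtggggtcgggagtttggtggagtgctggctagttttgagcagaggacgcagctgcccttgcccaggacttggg
Mcm5: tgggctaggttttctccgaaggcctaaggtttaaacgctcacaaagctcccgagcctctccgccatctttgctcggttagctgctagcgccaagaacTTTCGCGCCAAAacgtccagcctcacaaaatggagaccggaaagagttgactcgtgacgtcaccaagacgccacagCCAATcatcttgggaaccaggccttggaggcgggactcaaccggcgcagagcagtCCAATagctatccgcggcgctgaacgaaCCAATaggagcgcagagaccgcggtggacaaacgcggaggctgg
Mcm6: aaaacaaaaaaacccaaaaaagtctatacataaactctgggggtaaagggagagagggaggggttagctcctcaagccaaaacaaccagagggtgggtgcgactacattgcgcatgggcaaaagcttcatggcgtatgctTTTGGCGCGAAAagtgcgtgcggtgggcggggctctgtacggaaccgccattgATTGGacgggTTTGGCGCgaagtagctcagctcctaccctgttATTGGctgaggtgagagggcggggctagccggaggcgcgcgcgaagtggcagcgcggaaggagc
Cdc6 holds 1 E2F word, Mcm5 holds 2 that overlap each other, and Mcm6 holds 3, of which 2 overlap. The 17 genes with an E2F word had a median log2 fold change of -0.16 at 48 h, and 10 of them fell. The 24 genes without had a median of -0.31, and 17 of them fell. With a search of 2 of the 4 words, the medians were -0.18 for 14 genes with a word, of which 8 fell, and -0.26 for 27 without, of which 19 fell. CCAAT, searched after these values were seen, occurred in 25 of the 41 windows (61.0%), against 41.1% of all genes with a window. In the lists of mitosis genes and G1 regulators given below it occurred in 79.2% and 55.6% of the windows. The 25 genes with CCAAT had a median log2 fold change of -0.19, and 18 of them fell. The 16 without had a median of -0.25, and 9 of them fell. The differences between genes with and without a word were not tested, and the E2F words were unevenly spread over the roles. They stood in 7 of 9 licensing windows and in 0 of 5 windows of dNTP supply genes. Only exact words were counted, and a match describes the letters of the window and not a bound site.

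Of the 8 genes of origin firing, 5 fell at 48 h (Mcm10, Dbf4, Cdc45, Gins3 and Gins2), with a median of -0.28 over the 8. Mcm10 (chr2:4994525-5017602, minus strand) encodes a scaffold that helps to activate the helicase. It was at 70.6, 69.3 and 74.1 CPM in control, 73.7, 69.0 and 72.1 CPM at 24 h and 43.6, 43.7 and 42.4 CPM at 48 h. The 48 h libraries stood well apart from the 6 others, which overlapped, and the log2 fold change was -0.72 (adjusted p = 1.12e-08, SE 0.06), a decrease of 39.4%. Dbf4 (chr5:8446973-8472716, minus strand) encodes the regulatory subunit of the Cdc7 kinase, which phosphorylates the loaded helicase. Its level was 91.2, 80.2 and 82.9 CPM in control, 84.2, 85.2 and 84.9 CPM at 24 h and 50.6, 60.1 and 57.2 CPM at 48 h. The last group did not overlap the others and its log2 fold change was -0.60 (adjusted p = 8.23e-07, SE 0.07). Cdc7 itself, the catalytic subunit, was above all control libraries at 48 h but was not called (0.16, adjusted p = 0.0657). Cdc7 was called higher without control replicate 1 (adjusted p = 0.0273) and with DESeq2 size factors (0.0459).

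Cdc45 and the GINS proteins complete the active helicase. Cdc45 had a log2 fold change of -0.41 (adjusted p = 2.66e-05, SE 0.06) at 48 h. The 4 GINS genes, whose products form 1 complex, differed in their values. Gins3 (-0.32, adjusted p = 0.0138, SE 0.10) and Gins2 (-0.24, adjusted p = 0.0133, SE 0.08) fell, and both calls were lost without control replicate 1 (adjusted p = 0.0747 and 0.0998) and without 48 h replicate 3 (0.104 and 0.0829). Gins1 was not called and overlapped control (-0.10). Gins4 (chr8:23716632-23727675, minus strand) was at 58.8, 58.7 and 55.1 CPM in control, 49.8, 52.8 and 55.5 CPM at 24 h and 59.4, 55.1 and 56.4 CPM at 48 h. The Gins4 libraries of 48 h and control overlapped, and their log2 fold change was -0.02 (adjusted p = 0.861, SE 0.06). Gins2 shares 67.3% of its exon bases with Gse1 on the opposite strand, and whether counting used the strand is not given in the sources used here. In all, 20 of the 49 genes share exon bases with another gene of the table, 6 of them more than 20% of their own.

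Among the clamp and clamp loader genes 3 of 6 fell at 48 h, and the median was -0.12. Rfc4 (chr16:22932693-22946487, minus strand) and Rfc5 (chr5:117516168-117527112, minus strand) encode small subunits of replication factor C, which loads the clamp. Rfc4 was at 45.9, 45.5 and 40.0 CPM in control, 38.4, 43.4 and 36.0 CPM at 24 h and 38.2, 37.1 and 34.9 CPM at 48 h, below control at 48 h but overlapping 24 h. The change against control was -0.26 (adjusted p = 0.0125, SE 0.08) on the log2 scale. Rfc5 was at 73.3, 75.0 and 66.7 CPM in control, 74.0, 75.3 and 70.7 CPM at 24 h and 63.8, 60.2 and 57.4 CPM at 48 h. These Rfc5 values gave a log2 fold change of -0.25 (adjusted p = 0.00351, SE 0.06) with all 48 h libraries below the 6 others. The call of Rfc4 was lost without control replicate 1 (adjusted p = 0.0781) and without 48 h replicate 3 (0.0684), and Rfc5 shares 41.4% of its exon bases with Wsb2 on the opposite strand. Pcna, the clamp itself, was at 284, 271 and 241 CPM in control and 248, 241 and 226 CPM at 48 h. The groups overlapped for Pcna, and although it was called lower (-0.16, adjusted p = 0.0378, SE 0.06) the call was lost when any 1 library other than control replicate 3 or 48 h replicate 1 was left out (adjusted p from 0.0537 to 0.264). Rfc1, Rfc2 and Rfc3 were not called, with log2 fold changes of -0.04, -0.09 and 0.05.

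All 8 polymerase and primase genes had their 48 h libraries below all control libraries, where this held for 27.4% of all genes. Of the 8, 4 were called lower, against 24.4% of all genes. Pold2 (chr11:5822180-5828292, minus strand), the second subunit of polymerase δ, showed the largest change of the 8. It was at 76.7, 84.6 and 72.5 CPM in control, 72.4, 63.7 and 69.0 CPM at 24 h and 60.5, 57.5 and 54.3 CPM at 48 h. All 24 h libraries of Pold2 were below control, by a log2 fold change of -0.19 (adjusted p = 0.129, SE 0.07) that was not called unless control replicate 3 was left out (adjusted p = 0.0397), and the 48 h change was -0.44 (adjusted p = 4.05e-05, SE 0.07). Prim2 (chr1:33492891-33708876, minus strand) encodes the large primase subunit, which starts each new strand together with polymerase α. Its values were 76.7, 73.7 and 72.8 CPM in control, 68.4, 72.2 and 72.8 CPM at 24 h and 56.7, 57.2 and 58.1 CPM at 48 h. The change at 48 h was -0.38 (adjusted p = 1.96e-05, SE 0.06) on the log2 scale, without overlap. Pola1, the catalytic subunit of polymerase α, fell by a similar amount (-0.37, adjusted p = 9.18e-05, SE 0.06). Pole2, a subunit of polymerase ε, fell as well (-0.30, adjusted p = 0.0148, SE 0.10), but not without control replicate 1 (adjusted p = 0.0847) or 48 h replicate 3 (0.104). Pole, Pola2, Prim1 and Pold1 were not called, with log2 fold changes from -0.15 to -0.09. Pole was called lower without control replicate 1 (adjusted p = 0.0197) and with no filter on low counts (0.0467).

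Of the 4 genes of single-strand binding and lagging strand maturation, 3 fell at 48 h, against 24.4% of all genes. The 48 h libraries of all 4 lay below control, where this held for 27.4% of all genes. Rpa1 (chr11:75188992-75239150, minus strand), the large subunit of the protein that coats single-stranded DNA, was at 433, 449 and 431 CPM in control, 385, 415 and 415 CPM at 24 h and 325, 313 and 311 CPM at 48 h. The groups followed each other without overlap, but the 24 h step (-0.11, adjusted p = 0.176, SE 0.05) was not called and the 48 h change was -0.47 (adjusted p = 1.28e-07, SE 0.05). Rpa2, the middle subunit, changed by -0.31 (adjusted p = 0.000532, SE 0.06) at 48 h. Fen1 (chr19:10176496-10181533, minus strand), the nuclease that trims Okazaki fragments, had 7.91, 9.57 and 9.10 CPM in control, 9.28, 8.40 and 10.5 CPM at 24 h and 7.60, 6.11 and 7.63 CPM at 48 h. Its 48 h libraries lay below control, yet the change was not called against control (-0.31, adjusted p = 0.0766, SE 0.14) and was called against 24 h (-0.40, adjusted p = 0.0212, SE 0.14). Fen1 shares 59.0% of its exon bases with Gm10143 on the opposite strand, and its level per kb was next to the lowest of the 49. Lig1 (chr7:13011239-13045350, plus strand), the ligase that joins the fragments, was at 254, 287 and 265 CPM in control, 234, 249.7 and 257 CPM at 24 h and 249, 239 and 239 CPM at 48 h. Lig1 was called lower at 48 h (-0.15, adjusted p = 0.0297, SE 0.05), a call lost without control replicate 2, 24 h replicate 2 or 3, or 48 h replicate 2 or 3 (adjusted p from 0.0522 to 0.165).

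The dNTP supply genes held the largest single change of the 49, that of Rrm2. Of the 5 genes, 4 fell at 48 h, and the median of the 5 was -0.47. Rrm2 (chr12:24758240-24764145, plus strand) encodes the small, radical-bearing subunit of ribonucleotide reductase, which turns ribonucleotides into deoxyribonucleotides. It was at 338, 327 and 342 CPM in control, 379, 384 and 379.6 CPM at 24 h and 164, 169 and 174 CPM at 48 h. The 24 h libraries were the highest and the 48 h libraries the lowest, with no overlap among the 3 groups. The log2 fold change was 0.18 (adjusted p = 0.0162, SE 0.04) at 24 h and -0.99 (adjusted p = 6.82e-12, SE 0.05) at 48 h, and the direct difference between the times was -1.17 (adjusted p = 7.24e-13, SE 0.05). At 48 h this was 49.6% less than control. The increase at 24 h kept its size without each of the 24 h libraries, from 0.18 to 0.19 on the log2 scale, but was then no longer called, with adjusted p from 0.0511 to 0.0636.

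Rrm1 (chr7:102090902-102118978, plus strand), the large catalytic subunit of the same enzyme, fell at 48 h as well. It was at 430.1, 435 and 429.6 CPM in control, 432, 449 and 434 CPM at 24 h and 306, 309 and 299.7 CPM at 48 h. The control and 24 h libraries of Rrm1 overlapped while the 48 h libraries lay below both, a log2 fold change of -0.50 (adjusted p = 1.79e-08, SE 0.04). Thymidylate synthase (Tyms) and cytosolic thymidine kinase (Tk1), the routes to thymidine nucleotides, fell by nearly the same amount, -0.47 (adjusted p = 9.85e-06, SE 0.07) and -0.47 (adjusted p = 6.1e-07, SE 0.05). Dut, the enzyme that removes dUTP, was not called against control. It overlapped control at 48 h (0.09, adjusted p = 0.271, SE 0.07) and was called higher than at 24 h (0.17, adjusted p = 0.0391, SE 0.06), a call lost without any 1 of the 48 h libraries or 24 h replicate 1 or 3 (adjusted p from 0.0711 to 0.0999). Without control replicate 1, Dut was called higher than control (0.0479). Rrm2b, the alternative small subunit, is not among the 49 genes and was looked at after these values were seen. It was at 26.2 ± 3.46 CPM in control and 24.6 ± 1.08 CPM at 48 h (mean ± SD, n = 3), with overlapping libraries.

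**Figure D3:**
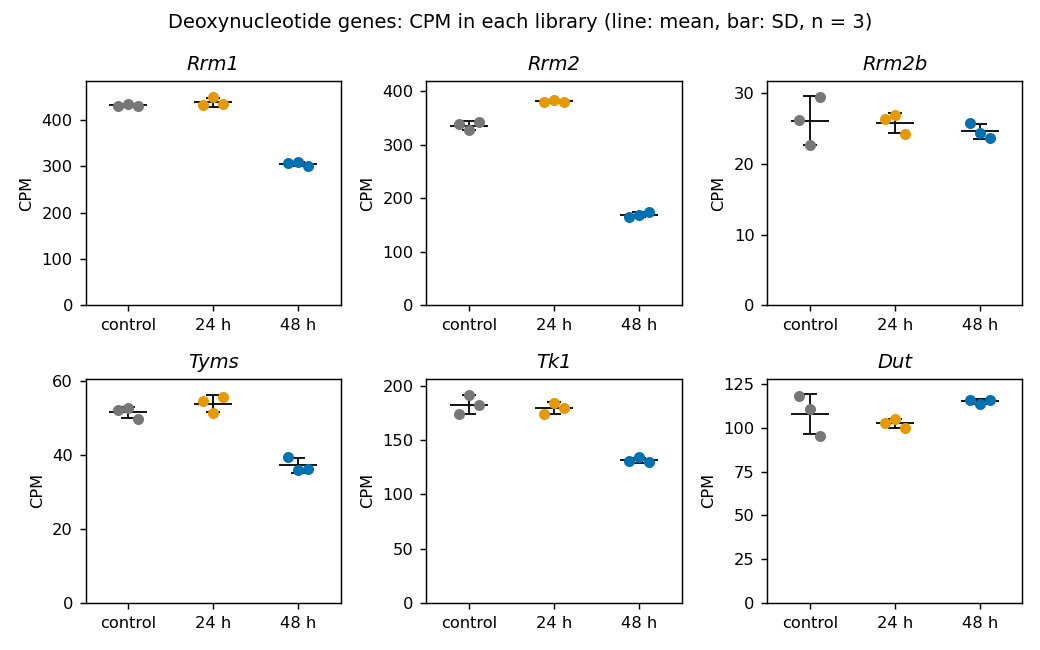
CPM of Rrm1, Rrm2, Rrm2b, Tyms, Tk1 and Dut in each library (points), with the mean (line) and SD (bar, n = 3) of each group and axes that start at 0. Rrm1, Rrm2, Tyms and Tk1 are low at 48 h, Rrm2 is also raised at 24 h, and Rrm2b and Dut overlap between 48 h and control.

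The promoter windows of the 5 dNTP supply genes held none of the E2F words. Those of Rrm2 (chr12:24708004-24708303, plus strand; GRCm38.p6) and Rrm1 (chr7:102441445-102441744, plus strand) are shown because both subunits of 1 enzyme fell, with CCAAT in capitals.
Rrm2: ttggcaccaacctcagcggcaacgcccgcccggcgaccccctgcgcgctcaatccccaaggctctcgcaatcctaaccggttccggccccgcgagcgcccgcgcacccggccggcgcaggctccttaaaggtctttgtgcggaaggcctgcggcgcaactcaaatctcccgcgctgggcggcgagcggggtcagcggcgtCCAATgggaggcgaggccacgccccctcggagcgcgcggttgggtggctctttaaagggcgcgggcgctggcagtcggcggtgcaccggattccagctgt
Rrm1: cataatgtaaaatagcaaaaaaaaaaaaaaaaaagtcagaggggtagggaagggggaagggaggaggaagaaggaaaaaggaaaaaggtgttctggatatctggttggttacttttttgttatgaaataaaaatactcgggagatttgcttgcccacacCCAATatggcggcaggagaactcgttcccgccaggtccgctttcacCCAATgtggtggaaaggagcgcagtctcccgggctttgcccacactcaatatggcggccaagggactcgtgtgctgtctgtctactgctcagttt
Rrm2 holds CCAAT once, 50 bases before the start, and Rrm1 holds it at 91 and 45 bases before the start. Tyms, Tk1 and Dut hold none, so that 2 of the 5 windows (40.0%) hold CCAAT, against 41.1% of all genes with a window. The absence of E2F words says only that these letters do not stand in the windows.

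Of the E2F and cyclin E genes, 4 of 6 fell at 48 h. E2f8 (chr7:48516177-48531344, minus strand), one of the atypical E2F repressors, was at 45.8, 50.2 and 51.8 CPM in control, 49.7, 40.6 and 53.9 CPM at 24 h and 36.9, 34.1 and 36.5 CPM at 48 h. Its 48 h libraries lay below the others (-0.46, adjusted p = 0.000294, SE 0.09). E2f7, the related repressor, overlapped control (0.12, adjusted p = 0.201, SE 0.07). Ccne1 (chr7:37797409-37806959, minus strand) encodes cyclin E1, the partner of Cdk2 at the entry into S phase. It was at 43.9, 43.8 and 42.3 CPM in control, 44.9, 44.3 and 44.1 CPM at 24 h and 33.8, 31.8 and 35.8 CPM at 48 h. Its 48 h libraries did not overlap the others (-0.36, adjusted p = 0.000189, SE 0.07 on the log2 scale). Ccne2 (chr4:11191351-11204779, plus strand), cyclin E2, was at 50.4, 45.8 and 49.4 CPM in control, 54.2, 53.6 and 50.2 CPM at 24 h and 44.4, 44.2 and 39.2 CPM at 48 h. Ccne2 overlapped between control and 24 h and was called lower at 48 h (-0.19, adjusted p = 0.0305, SE 0.07), a call lost without control replicate 1 or 3, 24 h replicate 2 or 48 h replicate 3 (adjusted p from 0.0515 to 0.183). E2f1, an activator of replication genes, was not called, with 81.0 ± 4.78 CPM in control and 79.7 ± 1.33 CPM at 48 h (mean ± SD, n = 3; adjusted p = 0.769). E2f2, another activator and the lowest of the 49 per kb, was called lower (-0.31, adjusted p = 0.0266, SE 0.11), a call lost without control replicate 1 or 48 h replicate 1 or 2 (adjusted p from 0.0941 to 0.106).

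Uhrf1 and Dnmt1 copy DNA methylation onto the new strand, and the former fell at 48 h while the latter was not called. Uhrf1 (chr17:56610321-56630486, plus strand), which recognises hemimethylated DNA, was at 319.8, 330.1 and 338 CPM in control, 344, 338 and 342 CPM at 24 h and 293, 283 and 291 CPM at 48 h. The 48 h libraries lay below the others, and their log2 fold change was -0.19 (adjusted p = 0.00177, SE 0.04). Dnmt1 (chr9:20818505-20871184, minus strand), the maintenance methyltransferase, was at 199.8, 194 and 221 CPM in control, 214, 202 and 222 CPM at 24 h and 196, 206 and 205 CPM at 48 h, and all 3 groups overlapped (-0.02, adjusted p = 0.815, SE 0.06).

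Several genes whose products act as partners stood in another ratio at 48 h than in control. The pairs were chosen with their values known, so the ratios are a description with no test, and they were taken per kb within each library. The size of a ratio depends on the exon lengths used, whereas its relative change between groups does not. The ratio of Rrm2 to Rrm1 was 3.09 ± 0.0889 in control, 3.45 ± 0.0490 at 24 h and 2.21 ± 0.0909 at 48 h (mean ± SD, n = 3 each). The ratio of Dbf4 to Cdc7 went from 1.05 ± 0.0199 in control to 0.620 ± 0.0586 at 48 h. In the helicase ring, the ratio of Mcm5 to Mcm6 was 0.781 ± 0.0391 in control and 0.582 ± 0.0118 at 48 h. For the atypical repressors, E2f8 to E2f7 was 2.19 ± 0.0167 in control and 1.47 ± 0.0893 at 48 h. In each pair the gene with the lower log2 fold change at 48 h was made the numerator, so that the direction of the ratios follows from this choice. Of 11 pairs computed, 10 had all 48 h libraries below all control libraries, and Pola1 to Pola2 was the exception. That count is therefore no result about the pairs.

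**Figure D4:**
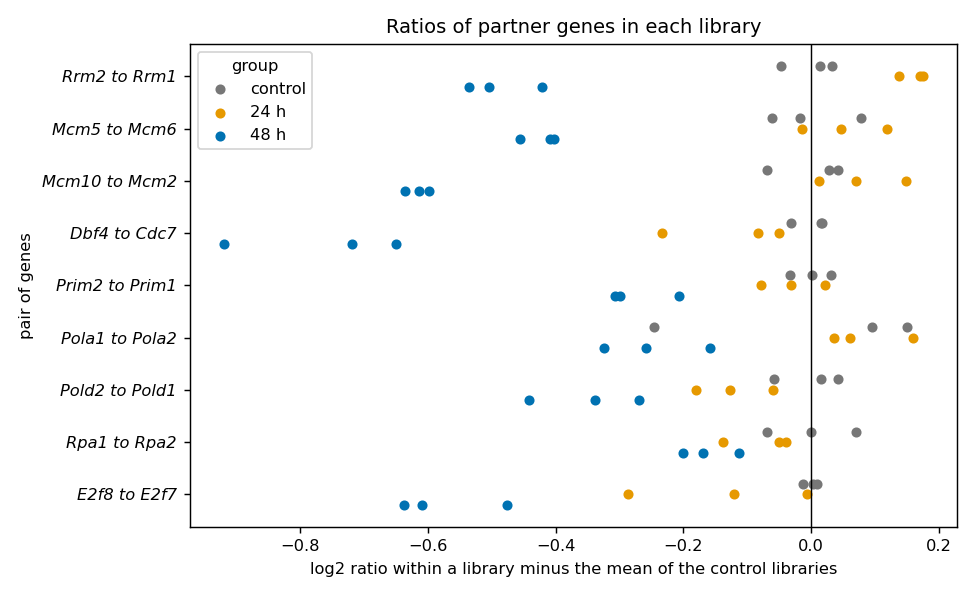
Log2 ratio of partner genes within each library, minus the mean of the 3 control libraries, for 9 pairs (rows) and the 3 groups (colours). In each pair the gene with the lower log2 fold change at 48 h is the numerator. The 48 h points lie left of the control points in each pair but Pola1 to Pola2, and the 24 h points of Rrm2 to Rrm1 lie to the right.

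The other genes of replication, nucleotide synthesis and the cell cycle were read from lists written with earlier results of these data known. Their counts at 48 h against control stand beside 24.4% of all genes called lower and 22.0% called higher. Of 37 other replication and checkpoint factors tested, 15 fell and 2 rose at 48 h, with a median of -0.17. The largest decreases were those of Asf1b, a histone chaperone (-0.82, adjusted p = 4.06e-08, SE 0.07), Pold4, the smallest subunit of polymerase δ (-0.71), and Chtf18, of an alternative clamp loader (-0.67). Cdk2, the partner of cyclin E, rose from 103 ± 2.07 to 122 ± 3.66 CPM (mean ± SD, n = 3; log2 fold change 0.24, adjusted p = 0.00125, SE 0.05), and Timeless, of the fork protection complex, rose as well (0.22). Among 9 other E2F and pocket protein genes, 4 fell and 3 rose, in a list too short to read against those shares. E2f5 (-0.57) and E2f3 (-0.45) fell, while Tfdp2, a dimer partner of E2F (0.53, adjusted p = 2.35e-05, SE 0.08), and Rb1, the retinoblastoma protein (0.44, adjusted p = 0.000154, SE 0.08), rose.

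Genes of nucleotide synthesis beyond the dNTP genes mostly fell. Of 17 genes of de novo purine and pyrimidine synthesis, 14 fell and 2 rose at 48 h, with a median of -0.48. Cad, the enzyme of the first steps of pyrimidine synthesis, went from 192 ± 14.0 CPM in control to 106 ± 3.10 CPM (mean ± SD, n = 3; log2 fold change -0.85, adjusted p = 1.4e-09, SE 0.06). Adsl and Prps1, of purine synthesis and of phosphoribosyl pyrophosphate supply, had log2 fold changes of -0.73 and -0.72, whereas Ctps2, a CTP synthase (0.33), and Paics, of purine synthesis (0.24), rose. At 24 h, 1 of the 17 was called, Ctps, the other CTP synthase, which was higher (0.28, adjusted p = 0.00335, SE 0.06), where 3.25% of all genes were called higher and 2.9% lower. Of 14 other genes of deoxynucleotide metabolism, 9 fell and 2 rose at 48 h. Nme1 (-1.08, adjusted p = 5.91e-10, SE 0.07), Nme2 (-1.25) and Dctd, dCMP deaminase (-0.88), fell most. Nme1 and Nme2 are nucleoside diphosphate kinases whose exons are shared with a readthrough gene, and Nme2 had only 19 to 59 counts in any library. The 2 that rose were Samhd1, which degrades dNTPs (0.29, adjusted p = 0.000175, SE 0.05), and Dguok, a mitochondrial kinase (0.26).

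All 30 mitosis genes fell at 48 h, with a median of -0.61, and 0 of 30 were called at 24 h. An unadjusted p under 0.05 at 24 h was found for 8 of the 30, against 2577 of all 13812 genes. The 24 h change was positive for 25 of the 30, and for 12 all 24 h libraries lay above all control libraries, where this held for 10.3% of all genes. Plk1 (-0.95, adjusted p = 1.77e-09, SE 0.07), Ccnb1 (-0.82) and Ube2c (-0.81), a kinase, a cyclin and a ubiquitin enzyme of mitosis, fell most. The log2 fold changes of the mitosis genes ranged from -0.95 to -0.40, a range that also held 9 of the 49 replication genes. Of 11 G1 regulators tested, 6 fell and 3 rose at 48 h, where 24.4% of all genes were called lower and 22.0% higher. Ccnd1, cyclin D1, fell from 249 ± 16.8 to 102 ± 4.26 CPM (mean ± SD, n = 3; log2 fold change -1.29, adjusted p = 3.71e-12, SE 0.06), and Ccnd2 fell by 0.70 on the log2 scale. The cyclin-dependent kinase inhibitors were called in both directions. Cdkn1b (0.47, adjusted p = 1.36e-06, SE 0.06) and Cdkn2a (0.32) rose. Of the other inhibitors, named after their values were seen, Cdkn2c rose (0.20), Cdkn2d fell (-0.38, adjusted p = 0.00171, SE 0.09), and Cdkn1a (-0.09) and Cdkn2b (-0.09) were not called. At 24 h, 3 of the 11 were called lower, Cdkn2b (-0.35, adjusted p = 0.00352, SE 0.07), Cdkn2a (-0.32) and Cdk4 (-0.17), and 1 higher, Cdkn2c (0.23), against 2.9% and 3.25% of all genes. The difference between these lists and the 49 replication genes was not tested.

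**Figure D5:**
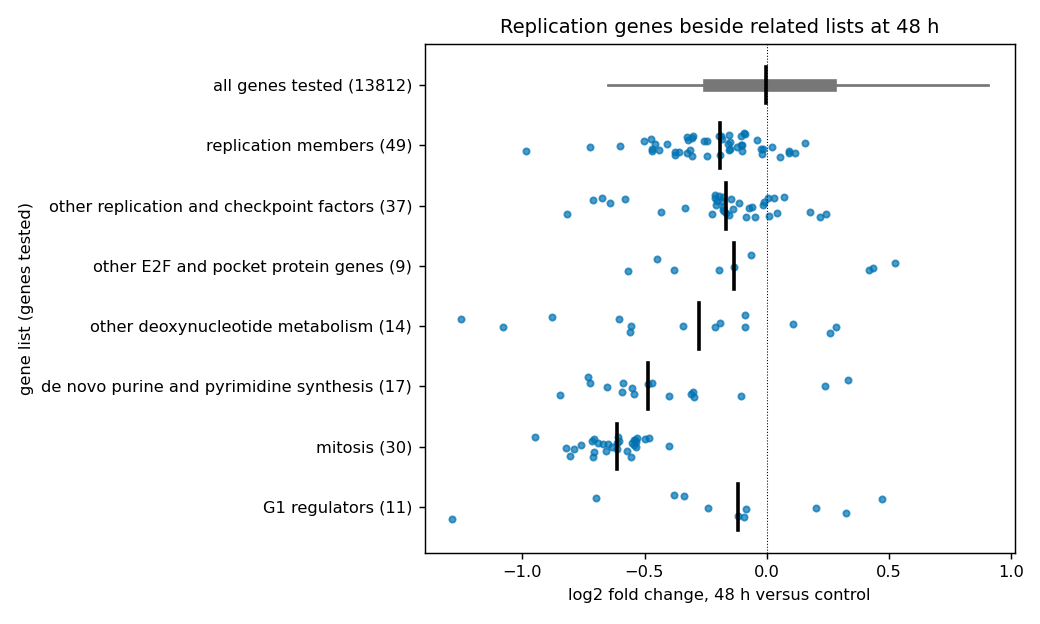
Log2 fold change at 48 h against control for each gene (points) of 7 lists, with the list median (black bar), beside all 13812 genes tested, for which the thick bar spans the 25th to 75th and the thin line the 5th to 95th percentile. The replication genes (median -0.19) spread from -0.99 to 0.16, and the 30 mitosis genes (median -0.61) all lie left of 0.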

How the data were processed

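RNA of MLO-Y4 cells in transwell co-culture was sequenced from directional libraries, 3 per group. The gene table deposited by the authors holds raw counts of reads aligned with HISAT2 to GRCm39. The submitters' processing notes name featureCounts as the counter, whereas the study's methods name both featureCounts and RSEM. The values are whole numbers, and which counter made them was not settled. Whether counting used the strand is not given in the sources used here, so overlapping genes and near-identical copies are uncertain. Groups follow the sample labels.

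Counts were fitted with edgeR 4.0.16 (R 4.3.3; filterByExpr with a minimum count of 10, TMM, quasi-likelihood, all 9 libraries, group as the only term, 6 residual degrees of freedom), with Benjamini-Hochberg adjustment over 13812 genes. SE is the absolute log2 fold change divided by the square root of F. Within each group, every pair of libraries differed beyond counting noise. The fit was tested on simulated data for 48 h versus control (13609 genes), where it recovered 51.5% of 1.25-fold, 78% of 1.5-fold and 90.1% of 2-fold changes, so that small changes among the genes not called can have been missed.

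The 49 genes, the other lists and the tests were chosen with earlier results of these data known. Values per library are given for the 2 genes of each role (1 where the role has 2) with the largest absolute log2 fold change at 48 h, and for the largest at 24 h. Of each other list, up to 3 called genes with the largest change and up to 2 in the minority direction are named. Exon overlaps were taken from GENCODE on GRCm39. Alternatives were another scaling, filter, tool (DESeq2 1.42.0, limma 3.58.1), threshold, the 2 groups alone, a replicate block, and leaving out each library.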

Additional observations from a re-analysis of the deposited data

Results flagged for a closer look

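Rrm2 was the 1 gene of the 49 that was called in opposite directions at the 2 times. It was above all control libraries at 24 h and below all of them at 48 h, and the direct test of 48 h against 24 h in the edgeR fit gave -1.17 on the log2 scale (adjusted p = 7.24e-13, SE 0.05). The 24 h increase was 0.18 (adjusted p = 0.0162) and was not called when any 1 of the 24 h libraries was left out (adjusted p from 0.0511 to 0.0636). The difference between the times was called in all 17 alternatives, with log2 fold changes from -1.19 to -1.13.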

How the results depend on the processing

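Of the 30 decreases at 48 h against control, 19 were called in all 17 alternatives and 11 were not, among them those of Mcm2, Pcna, Orc6, Lig1 and Ccne2. The count of these decreases was 25 with library size only or in genes of at least 5 CPM. It was 26 with DESeq2 or the 2 groups alone, 28 with DESeq2 size factors and 31 with limma-voom. At an adjusted p under 0.01, 19 decreases against control were left, 0 increases at 24 h, 1 increase at 48 h over 24 h, 8 decreases of other replication factors and 1 increase of deoxynucleotide metabolism. The count of increases at 48 h against control was 1 with DESeq2 size factors (Cdc7), 1 with library size only (Cdc7) and 2 in genes of at least 5 CPM (Cdc7 and Mcm6). For 48 h over 24 h it was 1 with no filter and 4 with the 2 groups alone. With library size only, the median of 48 h against 24 h was -0.155, Mcm2 at 48 h stood at 71.9 CPM per kb and Rrm2 at 24 h at 135.5 CPM per kb.

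Leaving out single libraries gave 20 to 28 decreases and 0 to 2 increases at 48 h against control. At 24 h it gave 0 to 2 increases and 0 to 3 decreases. For 48 h against 24 h it gave 22 to 26 decreases, 1 to 2 increases and a median from -0.23 to -0.13. The 3 decreases at 24 h appeared without control replicate 3. Genes with changes near 0 at 48 h turned sign: without single libraries, Cdt1 ranged from -0.0389 to 0.13, Gins4 from -0.0469 to 0.0128, Rfc1 from -0.0675 to 0.0234, Rfc3 from -0.0025 to 0.17, E2f1 from -0.0536 to 0.0251 and Dnmt1 from -0.0459 to 0.0535. With library size only, Gins4 was at 0.0052 and Dnmt1 at 0.0022, and in genes of at least 5 CPM Gins4 was at 0.0167, E2f1 at 0.0093 and Dnmt1 at 0.0136. The cause was not tested, other than that each fit without a library held fewer samples.

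The deviations of same-numbered libraries from their group means correlated between -0.05 and 0.08, and those of libraries with other numbers between -0.097 and 0.095. No shared effect of the number was seen, which does not settle whether samples were paired. With the replicate number as a block, 31 genes were lower at 48 h against control, the added gene being Pole, and 25 were lower against 24 h. Over all genes at 24 h, the block gave 538 higher and 420 lower, against 449 and 400 in the main fit. Among the 49 genes, the lowest counts were those of Fen1 (102 to 149) and E2f2 (176 to 253), and the SE at 48 h was widest for Fen1 (0.14), Gins1 (0.11) and E2f2 (0.11). Depth was not tested as the limit.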
